A study of Mus musculus with 6 samples.

Results

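*Spink8*, *Arhgap36*, *Mc4r* and *Tdo2* are 4 of the 21667 named genes measured by RNA sequencing in the somatosensory cortex of *Mef2c* cKO and control mice. They were chosen by their gain in reads in the cKO mice, so the difference between the genotypes is given here as a description and not as a test. MEF2C is a transcription factor of cortical excitatory neurons. The 3 cKO mice were *Mef2c* fl/fl and carried Cre in the endogenous *Emx1* gene, which is active from the embryo onwards in most forebrain excitatory neurons and in some glia. The 3 controls were *Mef2c* fl/fl littermates without Cre, so the loss of *Mef2c* and the presence of the Cre allele cannot be told apart in this design. All 6 were adult male mice on a mixed SVeV-129 and C57BL/6J background. In both genotypes replicate 1 was 14 weeks old and replicates 2 and 3 were 12 weeks old.

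The 4 genes act in different pathways. *Spink8* belongs to the Kazal-type inhibitors of serine peptidases, small secreted proteins, and in the mouse brain it is known as a gene of hippocampal pyramidal cells. *Arhgap36* encodes a protein with a GTPase-activating domain that is known for binding and inhibiting the catalytic subunit of protein kinase A and for activating the GLI factors of the hedgehog pathway. *Mc4r* encodes the melanocortin 4 receptor, which raises cyclic AMP when bound by peptides cut from the POMC precursor, is blocked by AGRP, and is best known for the control of appetite in the hypothalamus. *Tdo2* encodes tryptophan 2,3-dioxygenase, a heme enzyme that opens the ring of tryptophan at the entry to the kynurenine pathway, and is known in liver and, in the brain, in mature granule cells of the dentate gyrus.

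The deposited values were RPKM, reads scaled by a length and by the depth of the sample, but the length by which 1 gene had been divided differed from mouse to mouse. Whole read counts were therefore recovered from the steps of the values in each table and scaled to the recovered total of the sample (CPM, the count as a share of all reads times 1000000). The totals were 19326365 to 54128334 reads per mouse, lowest in cKO replicate 2. *Mef2c* itself had 772 to 800 CPM in the controls and 1231 to 1468 CPM in the cKO mice. This count covers the whole gene and not the floxed part alone, so it does not check the deletion. *Emx1*, the gene that holds the Cre insertion, had 16.5 to 20.3 CPM in the controls and 4.97 to 5.71 CPM in the cKO mice, which separated the libraries by their labelled genotype.

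*Spink8* lies on the plus strand of chromosome 9 (109714794 to 109729147 in the mm9 build), and its annotated exons cover 794 bases. The controls held 10, 7 and 14 reads of *Spink8* in replicates 1, 2 and 3, which is 0.294, 0.142 and 0.272 CPM. In the cKO mice 187, 71 and 261 reads were recovered, or 5.71, 3.67 and 4.82 CPM. The lowest cKO value was 12.5 times the highest control value, and the cKO mean (4.74 ± 1.02 CPM, SD, n = 3) was 20.1 times the control mean (0.236 ± 0.0822 CPM, SD, n = 3). Reads were thus present in every control, and the gene was scarce there rather than silent. On the log2(CPM + 0.1) scale, which understates the change of low genes, the difference was 3.86 ± 0.26 (SE). In control replicate 3 the deposited value could also stand for 44 reads (0.854 CPM). With that count the lowest cKO value was 4.3 times the highest control value, the cKO mean was 11 times the control mean, and the log2 difference was 3.4.

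*Arhgap36* lies on the plus strand of the X chromosome (46817122 to 46853421 in mm9), and its annotated exons cover 3421 bases. The 13, 15 and 19 reads of the 3 controls corresponded to 0.382, 0.304 and 0.369 CPM. The cKO mice gave 168, 51 and 423 reads, or 5.13, 2.64 and 7.81 CPM, the widest cKO range of the group, with a factor of 2.96 between the highest and the lowest mouse. Control and cKO mice did not overlap, and the lowest cKO value was 6.9 times the highest control value. The means were 0.352 ± 0.042 CPM in the controls and 5.19 ± 2.59 CPM in the cKO mice (SD, n = 3 each), a ratio of 14.8 and a log2 difference of 3.43 ± 0.35 (SE). The count of cKO replicate 1 was 1 of 3 possible counts, the next being 224 reads, and in control replicate 3 the value could also stand for 38 reads (0.737 CPM). With 38 reads the lowest cKO value was 3.58 times the highest control value, the ratio of the means was 11 and the log2 difference 3.15.

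*Mc4r* is a gene of a single exon of 2758 annotated bases. The controls held 28, 21 and 21 reads of it, or 0.823, 0.425 and 0.407 CPM. The cKO mice held 216, 81 and 523 reads, which is 6.6, 4.19 and 9.66 CPM. All 3 cKO mice were above all 3 controls, by a factor of 5.09 between the nearest values. The cKO mean of 6.82 ± 2.74 CPM was 12.4 times the control mean of 0.552 ± 0.235 CPM (SD, n = 3 each), and the log2 difference was 3.39 ± 0.33 (SE).

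*Tdo2* lies on the minus strand of chromosome 3 (81761012 to 81780124 in mm9), and its annotated exons cover 3859 bases. The controls held 16, 13 and 23 reads, or 0.47, 0.263 and 0.446 CPM, and the cKO mice 133, 90 and 330 reads, or 4.06, 4.66 and 6.1 CPM. *Tdo2* varied least among the cKO mice, by a factor of 1.5 between the highest and the lowest, and here too the genotypes did not overlap, with a factor of 8.63 between the nearest values. The means were 0.393 ± 0.113 and 4.94 ± 1.05 CPM (SD, n = 3 each), a ratio of 12.6 and a log2 difference of 3.36 ± 0.24 (SE). In bulk tissue a change in the number of cells that use a gene and a change in the RNA per cell cannot be told apart, which holds for all 4 genes.

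**Figure D1:**
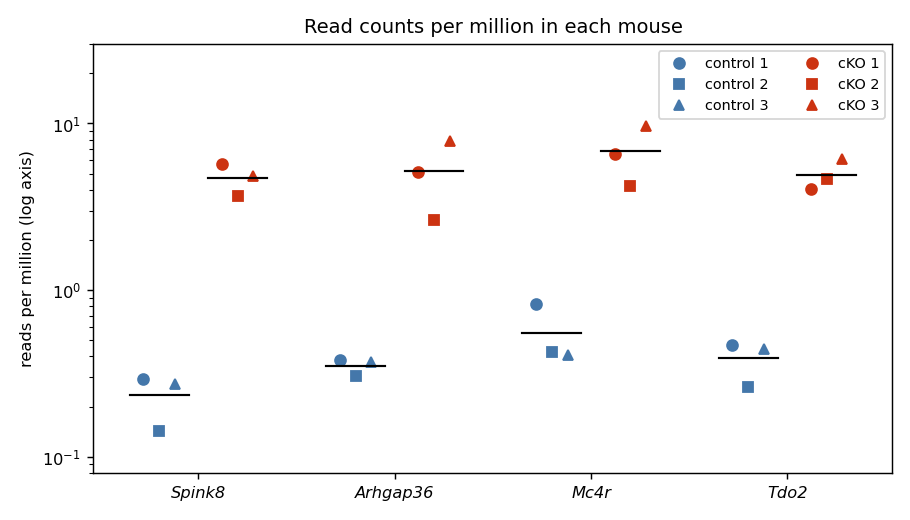
CPM (log axis) of the 4 genes in each of the 3 control (blue) and 3 cKO mice (red), with the symbol giving the replicate and the bar the mean of a genotype. The controls lie between 0.142 and 0.823 CPM and the cKO mice between 2.64 and 9.66 CPM, with no overlap for any of the 4 genes.

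The 4 genes did not rank the mice alike. Among the cKO mice replicate 2 was lowest for *Spink8*, *Arhgap36* and *Mc4r* but not for *Tdo2*, for which the 14-week-old replicate 1 was lowest. Replicate 3 was highest for *Arhgap36*, *Mc4r* and *Tdo2*, and replicate 1 for *Spink8*. Among the controls replicate 1 was highest for *Mc4r* and *Tdo2*, and with the counts taken here also for *Spink8* and *Arhgap36*, for which the other possible count would put replicate 3 highest. Summed over the 4 genes, the controls had 1.97, 1.13 and 1.49 CPM and the cKO mice 21.5, 15.2 and 28.4 CPM. Counting error is part of this spread: the 7 reads of *Spink8* in control replicate 2 have an exact 95% Poisson interval of 0.057 to 0.292 CPM, while the 523 reads of *Mc4r* in cKO replicate 3 have an interval of 8.85 to 10.5 CPM. Such intervals cover counting error only. The ratio of the highest to the lowest cKO mouse was 1.55 for *Spink8*, 2.96 for *Arhgap36*, 2.31 for *Mc4r* and 1.5 for *Tdo2*, beside a median of 1.24 and an upper quartile of 1.4 over the 1926 tested genes with a cKO mean of 3 to 9 CPM.

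Levels can be compared between genes once they are divided by the annotated exon length. In the cKO mice *Spink8* stood highest, at 5.96 ± 1.29 CPM per kilobase of exon (SD, n = 3), and its lowest mouse (4.63) was above the highest mouse of each of the other 3 genes. *Mc4r* followed at 2.47 ± 0.994, *Arhgap36* at 1.52 ± 0.757 and *Tdo2* at 1.28 ± 0.271 CPM per kilobase, and each of these neighbours overlapped the next in their single values. Among the 13337 tested genes with an annotated length, *Spink8* was higher per kilobase than 3.57% in the controls and than 45.1% in the cKO mice. *Mc4r* moved from 1.73% to 26.3%, *Arhgap36* from 0.33% to 19.3% and *Tdo2* from 0.307% to 17.2%. The cKO levels per kilobase of all 4 genes were therefore below the middle of the tested genes.

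Fold changes were set against the other genes with a limma fit on log2(CPM + 0.1). A gene was tested if it was above 0.5 CPM in every mouse of at least 1 genotype, and it was called past an adjusted p of 0.05 and an absolute log2 fold change of 0.3. Of 14615 tested genes 1911 (13.1%) were called, 826 (5.65%) higher and 1085 (7.42%) lower in the cKO. All 4 genes entered the test through their cKO level alone and had been chosen on this contrast, so nothing is read from their being called. Their log2 fold changes ranked 1 (*Spink8*), 3 (*Arhgap36*), 4 (*Mc4r*) and 5 (*Tdo2*) among the tested genes. Gains of this size were rare: 8 tested genes had a log2 fold change above 3 and 40 above 2. Of the 618 tested genes with a control mean below 1 CPM, 12 had a cKO mean above 3 CPM, these 4 among them. The ranks depend on the pseudocount, and at a pseudocount of 1 they were 8, 12, 5 and 13.

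**Figure D2:**
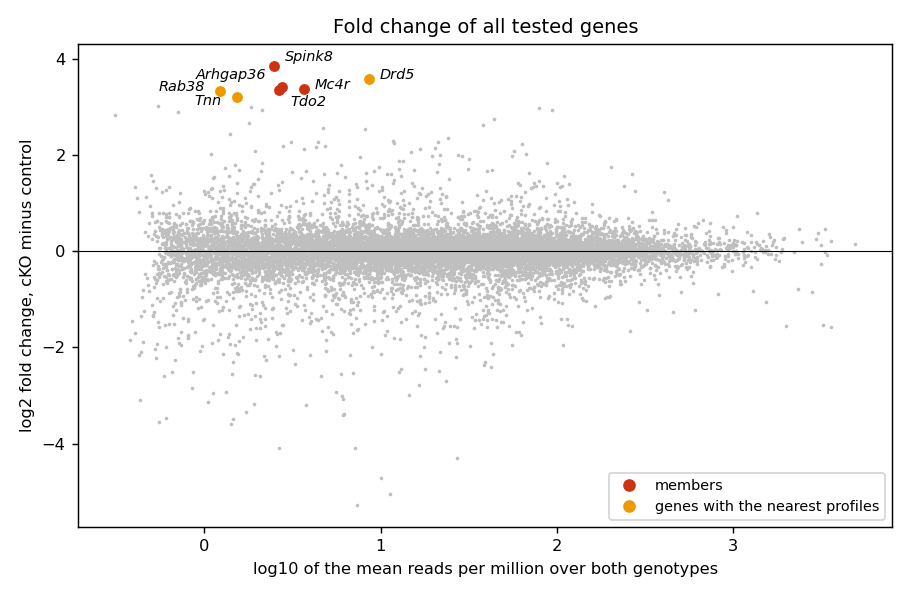
Log2 fold change (cKO minus control) against the mean CPM of both genotypes (log10) for the 14615 tested genes in grey, with the 4 genes in red and the genes of nearest profile in orange. *Spink8*, *Arhgap36*, *Mc4r* and *Tdo2* hold ranks 1, 3, 4 and 5 at the upper edge of the plot.

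On the deposited RPKM scale the same genes did not separate the genotypes. *Spink8* had been divided by lengths of 4134 to 102873 bases in the 6 tables, and its RPKM was 0.00916 to 0.0711 in the controls and 0.0469 to 0.672 in the cKO mice. *Arhgap36*, divided by lengths of 2676 to 279206 bases, ran from 0.00521 to 0.138 RPKM in the controls and from 0.00945 to 0.864 in the cKO mice. The ranges of *Mc4r* and *Tdo2* overlapped as well. Of the 24 RPKM values of the 4 genes 5 were above 0.5, so that a filter at 0.5 RPKM in every mouse of a genotype would leave out each of them.

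**Figure D3:**
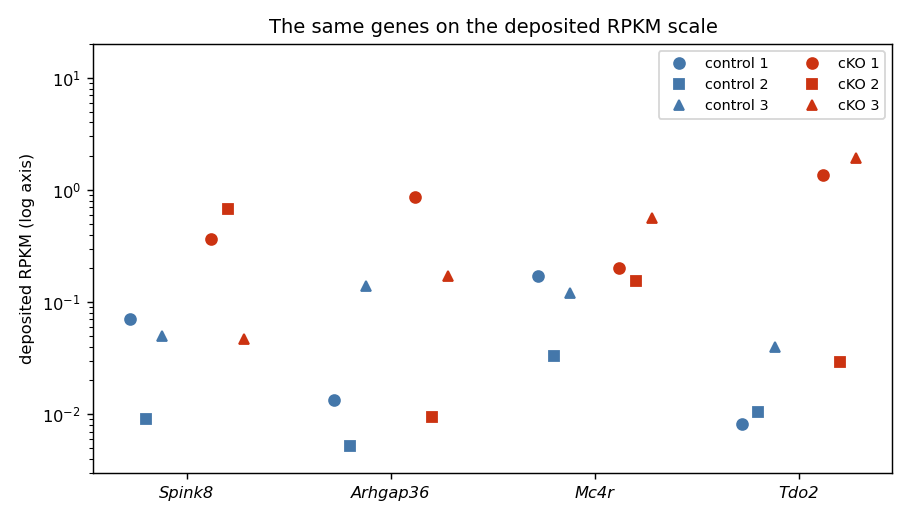
Deposited RPKM (log axis) of the 4 genes in each control (blue) and cKO mouse (red), with the symbol giving the replicate. For every gene at least 1 cKO value lies within or below the range of the controls, for *Arhgap36* at 0.00945 RPKM beside a control range of 0.00521 to 0.138.

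For each of the 4 genes, the 2 genes with the nearest profile over the 6 mice were sought among 12890 other genes, by the root mean square difference of the centred log2(CPM + 0.1) values. The smallest differences were those of *Tnn* from *Mc4r* (0.26), *Rab38* from *Tdo2* (0.263) and *Mc4r* and *Arhgap36* from each other (0.266). *Rab38*, which encodes a small GTPase of melanosome and lysosome-related traffic, was also nearest to *Spink8* (0.287) and second for *Arhgap36* (0.392). It had 0.176, 0.101 and 0.136 CPM in the controls and 2.69, 1.97 and 2.29 CPM in the cKO mice. *Drd5*, the D5 dopamine receptor, which like the melanocortin 4 receptor couples to the G protein that raises cyclic AMP, was second for *Spink8* (0.352) and for *Tdo2* (0.328). With 1.47, 1.3 and 0.97 CPM in the controls and 15.8, 14.2 and 17.9 CPM in the cKO mice, it had the second largest log2 fold change of the tested genes (3.59 ± 0.17 SE). *Tnn*, tenascin N of the extracellular matrix, had 0.323, 0.243 and 0.116 CPM in the controls and 2.9, 2.17 and 3.49 CPM in the cKO mice. These genes share the same 6 libraries, and the likeness rests mainly on the difference between the genotypes.

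The tested genes listed around the 4 genes by pathway or family showed no gain of that size. Of 123 listed genes 95 were tested and 23 (24.2%) were called, 7 higher and 16 lower in the cKO, beside the 13.1% called over all tested genes (5.65% higher and 7.42% lower). The median log2 fold change was -0.05 beside 0.01 over all tested genes. The counts of the single lists below stand beside the same 13.1%.

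In the melanocortin list 3 of 12 tested genes were called, 1 higher and 2 lower, with a median of -0.05. *Mrap2*, an accessory protein that binds melanocortin receptors, had 4.85, 8.04 and 6.64 CPM in the controls and 3.7, 2.02 and 3.01 CPM in the cKO mice. It fell by 1.15 ± 0.25 (SE) on the log2 scale (adjusted p = 0.0144), opposite in direction to *Mc4r*. Without control replicate 2 its adjusted p was 0.0559. *Mc2r*, the corticotropin receptor, fell by 0.66 ± 0.17 (adjusted p = 0.0293), a call that was lost without any 1 mouse other than control replicate 3 (adjusted p up to 0.0981). *Cpe*, a carboxypeptidase that trims neuropeptides, rose from 2640 ± 24.9 to 3420 ± 225 CPM (log2 fold change 0.37 ± 0.07, adjusted p = 0.0085). The ligand genes were not called. *Pomc* had 0.364 to 0.559 CPM in the controls and 0.0517 to 0.499 CPM in the cKO mice, below the filter. *Agrp* had 19.2 and 19.1 CPM in the 2 controls with a recovered count and 27, 25.6 and 22 CPM in the cKO mice (adjusted p = 0.0571, and 0.0248 without cKO replicate 3). *Mc3r*, the other melanocortin receptor known from the hypothalamus, was at or below 0.153 CPM in all 6 mice.

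Of the list of tryptophan and kynurenine metabolism 1 of 19 tested genes was called, and the median was -0.03. *Ido1*, which catalyses the same first step as *Tdo2*, had 0.529, 0.85 and 0.737 CPM in the controls and 0.55, 0 and 0.462 CPM in the cKO mice (adjusted p = 0.243). *Ido2*, its paralog, had 1.83 ± 0.0503 and 1.73 ± 0.712 CPM (adjusted p = 0.762). Per kilobase of exon, *Tdo2* at 0.102 CPM lay below *Ido1* (0.387) and *Ido2* (0.503) in the controls, and at 1.28 CPM above both (0.185 and 0.475) in the cKO mice. The enzymes of the following steps showed no called change. *Afmid*, the formamidase of the second step, had 3.83 ± 0.424 CPM in the controls and 3.3 ± 1.34 CPM in the 2 cKO mice with a count (adjusted p = 0.549). *Kynu*, kynureninase, had 0.701 ± 0.0872 and 0.693 ± 0.169 CPM (adjusted p = 0.953), and *Kmo*, kynurenine 3-monooxygenase, was at or below 0.121 CPM in every mouse. The called gene was *Tph2*, which takes tryptophan towards serotonin. It had 1.59, 1.72 and 1.59 CPM in the controls and 0.55, 0.88 and 1.05 CPM in the cKO mice (log2 fold change -0.94 ± 0.24, adjusted p = 0.0285), and the call was lost without control replicate 1, 2 or 3 or cKO replicate 1 (adjusted p up to 0.0924).

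The Spink family gave 1 tested gene of 12 with a row, *Spink10*, which was not called by limma, by limma voom or at an unadjusted p of 0.05. In the Arhgap family, proteins that switch off small GTPases, 11 of 29 tested genes were called, 4 higher and 7 lower, with a median of -0.16. *Arhgap42* fell from 27.8 ± 3.12 to 7.97 ± 0.724 CPM (log2 fold change -1.79 ± 0.11, adjusted p = 2.18e-05), and *Arhgap10*, *Arhgap29* and *Arhgap20* fell by 0.63, 0.58 and 0.45. *Arhgap25* rose from 9.96 ± 0.424 to 17.1 ± 0.957 CPM (0.77 ± 0.09, adjusted p = 0.00055) and *Arhgap31* by 0.59 ± 0.12 (adjusted p = 0.0151, with 2 cKO counts). The largest called gain in the family outside *Arhgap36* was therefore below 1 on the log2 scale.

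For both pathways that ARHGAP36 is known to act on, RNA levels of pathway genes were read. The RNA of kinase subunits, anchors and inhibitors does not measure kinase activity. In the hedgehog list 3 of 18 tested genes were called, 1 higher and 2 lower, with a median of 0.02. *Gli1* and *Ptch1*, the usual transcriptional targets of the pathway, were not called: *Gli1* had 2.14 ± 0.439 CPM in the controls and 1.68 ± 0.136 CPM in the cKO mice (adjusted p = 0.322), and *Ptch1* 60.1 ± 10.7 and 55.7 ± 0.871 CPM (adjusted p = 0.668). The co-receptor gene *Boc* fell by 1.55 ± 0.08 (adjusted p = 7.95e-06), from 37.2 ± 1.73 to 12.7 ± 0.73 CPM, and *Scube1* by 1.22 ± 0.09 (adjusted p = 6.23e-05). *Gpr161*, a receptor that holds the pathway back through cyclic AMP, rose by 1.08 ± 0.2 (adjusted p = 0.00639).

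In the protein kinase A list 5 of 16 tested genes were called, 1 higher and 4 lower, with a median of -0.14. *Prkaca*, a catalytic subunit, had 216 ± 13.2 and 223 ± 3.71 CPM (adjusted p = 0.625), whereas *Prkacb*, another catalytic subunit, fell from 538 ± 24.8 to 407 ± 30.7 CPM (log2 fold change -0.4 ± 0.07, adjusted p = 0.00446). The anchoring proteins *Akap12* and *Akap7* fell by 0.76 ± 0.09 and 0.51 ± 0.07, and the inhibitor *Pkib* by 0.63 ± 0.12 (adjusted p = 0.00905). *Pkig*, another inhibitor, rose by 0.31 ± 0.07 (adjusted p = 0.0234, with 2 control counts), just past the cut-off of 0.3, and its adjusted p was 0.0661 without cKO replicate 1.

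**Figure D4:**
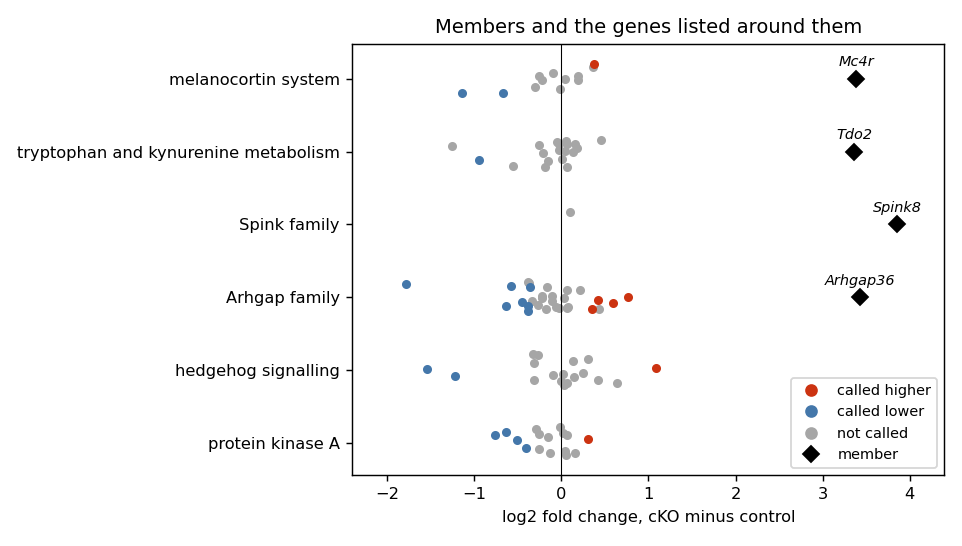
Log2 fold change (cKO minus control) of each tested gene of the 6 lists, 1 point per gene, coloured by whether it was called higher (red), lower (blue) or not called (grey), with the 4 genes as black diamonds. The diamonds lie between 3.36 and 3.86, and the highest listed gene, *Gpr161*, at 1.08.

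The genes beside the 4 genes on their chromosomes were taken as the 2 nearest with a row on each side. Of these 16 genes 10 were tested and 1 (10%) was called, beside 13.1% over all tested genes. No other annotated gene overlapped any of the 4 genes. *Ctso*, which ends 0.4 kb from *Tdo2*, had 31.8 ± 2.13 CPM in the controls and 35.5 ± 6.73 CPM in the cKO mice (adjusted p = 0.534). The genes closest to *Spink8*, *3000002C10Rik* and *Nme6* at 1.3 and 6.1 kb, had log2 fold changes of 0.19 ± 0.11 (adjusted p = 0.302) and 0.31 ± 0.14 (adjusted p = 0.197). *Gucy1b3* and *Gucy1a3* beside *Tdo2* and *Enox2* beside *Arhgap36* had changes of 0.04, -0.29 and 0.3 (adjusted p = 0.759, 0.129 and 0.0664). The called neighbour was *Ccbe1*, a secreted collagen-binding protein, 555 kb from *Mc4r*. It rose from 3.73, 5.89 and 6.27 CPM to 25.9, 13.1 and 21.3 CPM (log2 fold change 1.88 ± 0.27, adjusted p = 0.00166). *Pmaip1*, which lies between them, had 2.03, 2 and 1.67 CPM in the controls and 1.77, 0.621 and 1.15 CPM in the cKO mice (adjusted p = 0.166), and was called lower without cKO replicate 1 (adjusted p = 0.0412).

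Promoter sequences from RefSeq (GRCm38.p6) were read for 2 of the 4 genes, *Tdo2* and *Arhgap36*, with 2 start sites for *Arhgap36*. No entry was matched for *Spink8*, and *Mc4r* was left out of the search, so nothing is said here of their promoters. The 250 bases before each start are shown because the factor deleted in these mice binds DNA at a known motif. Capitals mark matches on either strand to TATAAA or to CANNTG, the E-box; the MEF2 consensus and TGACG, the core of the cyclic AMP response element, were searched as well and had no match in these windows. The windows are chr3:81975729-81975978 on the minus strand, chrX:49463695-49463944 on the plus strand and chrX:49470200-49470449 on the plus strand.
Tdo2: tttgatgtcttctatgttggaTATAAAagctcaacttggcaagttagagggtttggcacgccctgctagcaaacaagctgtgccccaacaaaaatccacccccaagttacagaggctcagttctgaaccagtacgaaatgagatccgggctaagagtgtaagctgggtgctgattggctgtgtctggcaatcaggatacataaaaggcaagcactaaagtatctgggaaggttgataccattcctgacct
Arhgap36, first start: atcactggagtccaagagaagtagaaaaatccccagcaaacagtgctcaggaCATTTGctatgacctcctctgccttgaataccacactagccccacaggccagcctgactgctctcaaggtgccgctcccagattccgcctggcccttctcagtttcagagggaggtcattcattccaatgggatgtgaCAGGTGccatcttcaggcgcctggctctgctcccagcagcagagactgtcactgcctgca
Arhgap36, second start: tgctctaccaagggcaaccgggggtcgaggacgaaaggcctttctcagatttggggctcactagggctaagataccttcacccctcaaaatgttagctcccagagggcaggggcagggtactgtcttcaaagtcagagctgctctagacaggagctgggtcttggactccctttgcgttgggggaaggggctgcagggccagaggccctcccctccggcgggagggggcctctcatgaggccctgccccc
The *Tdo2* window held TATAAA 229 bases before the start, and the window of the first *Arhgap36* start held 2 E-boxes. Over the 32851 promoters of the same length in the table, 2.92% held the MEF2 consensus, 12.4% TATAAA, 17.8% TGACG and 66.2% CANNTG. A match or its absence describes these letters only.

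Markers of the cell types and regions that a cortical sample could hold were read beside these results. The counts of called markers below stand beside 13.1% called over all tested genes (5.65% higher and 7.42% lower). The 9 markers listed for cortical excitatory neurons summed to 4700 to 5390 CPM in the controls and 4840 to 5700 CPM in the cKO mice. *Slc17a7* and *Camk2a*, which excitatory neurons of the hippocampus also express, made up 4260 to 4880 and 4250 to 5130 CPM of these sums, so the sums do not tell cortex from hippocampus. The other 7 summed to 442 to 525 and 564 to 602 CPM, a sum that joined opposite changes. They are not all confined to cortex either: the study describes *Emx1*-driven Cre in hippocampal as well as neocortical excitatory neurons. Neither this sum nor its single genes were compared with hippocampal tissue. *Tbr1* rose from 194 ± 32.9 to 310 ± 15.3 CPM and *Neurod6* from 41.6 ± 8.69 to 105 ± 8.04 CPM. *Cux2* fell from 96.2 ± 5.8 to 28.7 ± 2.5 CPM and *Rorb* from 26.1 ± 0.861 to 7.73 ± 0.752 CPM. Of the 9 markers 6 were called, 2 higher (*Tbr1*, *Neurod6*) and 4 lower (*Emx1*, *Cux2*, *Rorb*, *Fezf2*). The cKO mice carry the Cre insertion in *Emx1* itself, so its fall cannot be told apart from an effect of that allele. The call of *Fezf2* was lost without control replicate 1 or 2 or cKO replicate 1 or 2 (adjusted p up to 0.0908). Of the markers of hippocampal area CA1 all 5 were called higher. Their sum was 113, 122 and 117 CPM in the controls and 314, 272 and 393 CPM in the cKO mice. The order of the cKO mice in this sum came mainly from *Wfs1* (123, 96.7 and 195 CPM in replicates 1, 2 and 3). *Fibcd1* and *Man1a* had the same order, but *Pou3f1* (44.1, 43.3 and 42.1 CPM) and *Lefty1* (1.92, 1.29 and 1.64 CPM) did not. *Fibcd1* rose from 7.25 ± 1.35 to 35.3 ± 6.79 CPM and *Man1a* from 26.6 ± 3.9 to 108 ± 5.06 CPM, and 4 of the 5 were above 1 CPM in every control. Of the CA3 list 3 of 4 tested genes were called higher and *Coch* lower. *Nnat* had 19.1 and 22.5 CPM in the 2 controls with a count and 216, 109 and 176 CPM in the cKO mice, and *Bok* had 20.5 to 26 CPM in the controls and 52.9 and 58.4 CPM in the 2 cKO mice with a count. In the 4 mice with a count of all 5 CA3 markers, the sum was 126 and 118 CPM in control replicates 1 and 3 and 361 and 252 CPM in cKO replicates 1 and 2. Without *Nnat* and *Bok* the sums of the genotypes overlapped (74.6 to 95 and 84.3 to 98.7 CPM), but this sum too joined opposite changes. In it *Cpne4* rose from 44.2 ± 7.52 to 84.6 ± 4.95 CPM and *Coch* fell from 40 ± 5.01 to 6.79 ± 3.34 CPM, each without overlap of the genotypes.

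Of 7 dentate granule markers 3 were called, all lower, and 4, *Prox1* among them, were not called. The sum of 6 was 146 to 157 CPM in the controls and 59.2 to 63.1 CPM in the cKO mice, and most of this difference lay in *Stxbp6* (89.1 ± 4.36 and 27.9 ± 1.14 CPM) and *Npnt* (28.8 ± 0.957 and 4.1 ± 0.507 CPM). The other 4 summed to 32 to 35.1 CPM in the controls and 27.6 to 31.4 CPM in the cKO mice. Striatal markers (0 of 6 called by limma and by limma voom, 0 at an unadjusted p of 0.05) varied among the mice, with sums of 132 to 186 CPM in the controls and 229, 61.8 and 182 CPM in cKO replicates 1, 2 and 3. Of the hypothalamus list 7 of 8 markers were below the filter and together summed to 0.972 to 1.16 CPM in the controls and 0.979 to 1.04 CPM in the cKO mice. *Agrp*, which held nearly all reads of that list, is given above (19.2 and 24.9 CPM on average). Choroid plexus markers were highest in control replicate 3 (31.9 CPM) and at 9.67 to 11.6 CPM in the other 5 mice, and 0 of 3 were called by limma or limma voom (1 at an unadjusted p of 0.05). Interneuron markers summed to 664 to 744 CPM in the controls and 696 to 762 CPM in the cKO mice, with *Sst* and *Npy* called higher and *Pvalb* lower. The calls of *Sst* and *Npy* were lost without control replicate 1 or 2 or cKO replicate 1 or 2 (adjusted p up to 0.121 and 0.0942), and that of *Sst* also without control replicate 3. Thalamic markers summed to 59.6 to 69.5 and 55.5 to 64.1 CPM, with *Prkcd* called higher and *Slc17a6* lower. The call of *Prkcd* was lost without control replicate 1 or 3 or cKO replicate 2 or 3, and that of *Slc17a6* without control replicate 1 or 2 or cKO replicate 1 or 3 (adjusted p up to 0.129 and 0.0977). The part of the CA1, CA3, dentate and hypothalamic markers in the gains of *Spink8*, *Arhgap36*, *Mc4r* and *Tdo2* was not tested.

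**Figure D5:**
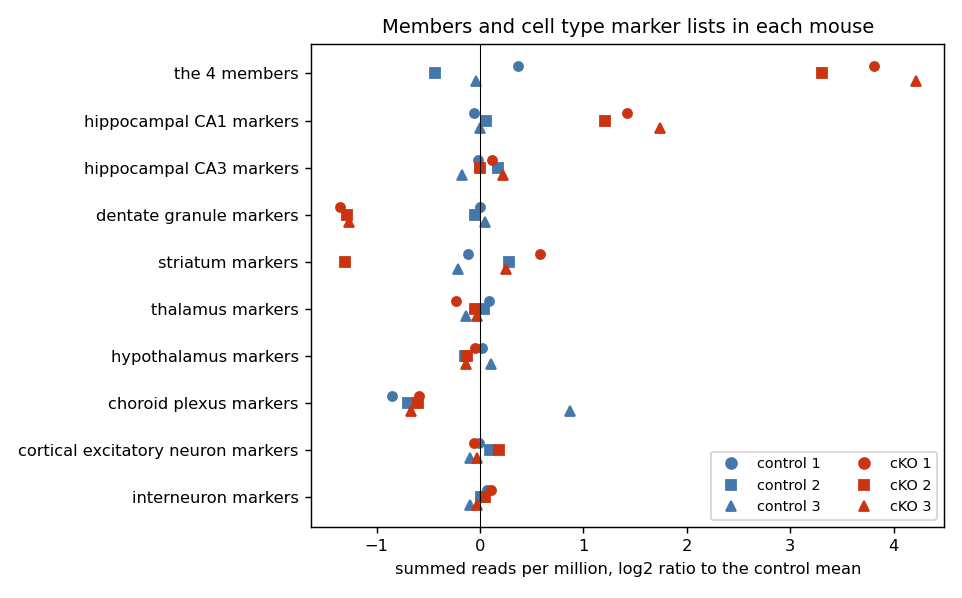
Summed CPM of the 4 genes and of each marker list in each mouse, as the log2 ratio to the mean of the 3 controls (blue controls, red cKO mice, symbols for the replicates). Markers without a count in every mouse, such as *Nnat*, *Bok* and *Agrp*, are not in the sums. The CA1 markers lie to the right in all 3 cKO mice (272 to 393 CPM against 113 to 122 CPM in the controls), the dentate granule sum, mostly *Stxbp6* and *Npnt*, to the left, and the striatal sum of cKO replicate 2 (61.8 CPM) lies apart from the other mice.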

How the data were processed

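PolyA-selected RNA of the somatosensory cortex was sequenced as directional libraries from 6 mice, 3 of each genotype. Per the labels and the study's methods, the authors aligned the reads to mm9 with TopHat and Bowtie, counted genes with HTSeq and deposited RPKM values, 1 table per mouse. Rows that named no gene (92) were not used. Totals and counts were recovered from the value steps, given that each table used 65 to 295 lengths. Of the values above 0, 94.99% to 99.88% received a count, and the rest were treated as missing. Of the 24 values of the 4 genes, 21 allowed 1 count. The others were settled by a weight that favours the shorter length, and so the lower count, and by the lengths of the same gene in other tables. The level of the gene in other tables was not used. In each of these values the lowest possible count was taken, which in a control enlarges the gain and in a cKO mouse lessens it. In 6 simulated tables of 21667 genes all 6 totals were found and at least 99.86% of the counts given were right.

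CPM were tested with limma 3.58.1 (R 4.3.3, lmFit and eBayes with a variance trend, Benjamini-Hochberg adjustment) on log2(CPM + 0.1), without covariates, for genes above 0.5 CPM in every mouse of 1 genotype with at least 2 counts per genotype. When the fit was tested on simulated data of 21667 genes, it called 100% of 100 genes changed by 1 and 100% of 100 genes changed by 2 on the log2 scale. The changed genes had simulated control means above 2 CPM and less spread between mice than *Arhgap36* and *Mc4r* had in the cKO. The simulation therefore says little about genes as scarce or as variable as these. Positions are from the gencode annotation of mm9, not the annotation the authors used. Named beside the 4 genes were up to 6 called genes of each list, the genes of the next steps, the 2 neighbours on each side, the 2 nearest profiles and *Mef2c*. Of the lists, 2 genes are not reported here. Members and lists were chosen with earlier results of these data known. Alternatives were other pseudocounts, filters, scalings, limma voom, the deposited RPKM, a replicate block and leaving out each mouse. The count possible instead in control replicate 3 was tried after seeing the data.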

Additional observations from a re-analysis of the deposited data

How the results depend on the processing

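The log2 fold changes of the 4 genes stayed positive in every alternative, but their size followed the pseudocount. At pseudocounts of 0.5 and 1 they were 2.82 and 2.2 for *Spink8*, 2.63 and 2.11 for *Arhgap36*, 2.75 and 2.28 for *Mc4r*, and 2.6 and 2.08 for *Tdo2*, by the construction of that scale. With limma voom *Spink8* had 4.37 and *Tdo2* 3.7, and with the other possible count in control replicate 3 *Spink8* had 3.4. Without 1 mouse they ran from 3.64 to 4.03 (*Spink8*), 3.07 to 3.84 (*Arhgap36*), 3.1 to 3.69 (*Mc4r*) and 3.15 to 3.49 (*Tdo2*). On the deposited RPKM they were 1.42, 1.11, 0.89 and 2.62, and 14 genes in all, 0 of the listed genes and 0 of the neighbours were called by limma (5 and 1 at an unadjusted p of 0.05). On that scale 4 named genes called on the counts changed sign without being called, *Cpe* (-2.83), *Cux2* (0.7), *Sst* (-1.38) and *Npy* (-0.17). A cut-off of 1 on the log2 fold change left 463 genes. Without 1 mouse 1546 to 1733 genes, 17 to 23 listed genes and 1 to 2 neighbours were called.

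Mice of the same replicate number showed no shared deviation: deviations from the genotype means correlated at -0.16, -0.08 and -0.06 within the 3 numbers. With 3 mice per genotype this cannot show whether the mice were paired, and replicate 1 was the older mouse in both genotypes. With the replicate block 1581 genes were called, and the calls of *Mc2r*, *Cpe*, *Pkig*, *Slc17a6*, *Sst* and *Npy* were among those lost. Depth limits the control levels of the 4 genes, which rest on 7 to 28 reads.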
